A study of Mus musculus with 24 samples.

Results

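A set of 9 genes of the retinoid pathway was followed by chromatin accessibility in cultured mouse macrophages with and without the aryl hydrocarbon receptor (AhR), a ligand-activated transcription factor that binds DNA together with ARNT. The members are Dhrs3, Aldh1a1, Aldh1a2, Aldh1a3, Rbp4, Cyp26a1, Cyp26b1, Crabp2 and Rarb. A consensus peak, a region of open chromatin merged over all libraries, was given to a member when it overlapped the gene body or lay within 20 kb of it, and a peak near several members went to the nearest. This gave 108 of 184158 consensus peaks, 0.0587% of the table. The set was chosen by measured values: Dhrs3 was selected on the strength of its AhR by LPS interaction at an intronic peak, so the values of that peak are given as a description with no test.

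Retinoid metabolism turns vitamin A into a signal. Retinol arrives in the blood on Rbp4, is oxidised to retinal and then irreversibly to retinoic acid by the Aldh1a enzymes, and retinoic acid binds nuclear receptors such as Rarb that sit on DNA with RXR partners. Dhrs3 runs the opposite way, reducing retinal to retinol, the cytosolic carrier Crabp2 delivers retinoic acid to its receptors, and the Cyp26 enzymes break it down. Several of these genes are themselves targets of retinoic acid, and retinoic acid made by myeloid cells is known for its part in mucosal tolerance.

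ATAC-seq, in which a transposase cuts accessible DNA, was run on bone marrow-derived macrophages (BMDM) from C57BL/6J wildtype (WT) mice and from AhR-KO mice, the whole-body knockout B6.129-Ahr tm1Bra/J, of both sexes. All cultures were grown in 10 ng/ml GM-CSF and 2 ng/ml TGF-β, which the study used as a model of alveolar-like macrophages, and per the study's methods received 5 µM of the calcium ionophore A23187 for 10 min at the end. The 4 groups of 6 libraries were WT unstimulated, WT LPS, AhR-KO unstimulated and AhR-KO LPS (the last pair also called knockout here), where LPS is the bacterial TLR4 ligand at 97 EU/ml for 24 h from day 6. The study states 6 animals per group from a single experiment, so the spread is that between these cultures. The accessibility of the Ahr promoter (22.6 ± 1.67 CPM in WT unstimulated, 13.2 ± 1.2 in knockout unstimulated, SD, n = 6) is no check of the allele.

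Libraries held 8.54 M to 34.6 M (mega) counted fragments in peaks, with 1 shallow library (WT unstimulated replicate 5) at the low end. Levels are given as CPM (counts scaled to library size) scaled by TMM, with mean ± SD over n = 6 libraries, and differences as log2 fold changes ± SE from the quasi-likelihood test of edgeR, adjusted after Benjamini and Hochberg over all 174106 tested peaks. A differentially accessible region (DAR) needed a change of 1.5-fold or more and an adjusted p no higher than 0.05. Of the 108 member peaks, 106 passed the filter on low counts and the other 2 are Rarb peaks. The filter asked for about 0.411 CPM in at least 6 libraries, and 8 of the 106 would not have passed without the libraries of 1 of the groups. Others passed only with libraries of 1 genotype or of 1 treatment, and those described singly are marked below. Promoters of macrophage markers were open in every group (7 of 8 genes), but their summed level differed by genotype without LPS, at 136 to 156 CPM in WT and 158 to 201 in knockout libraries. With LPS it was 121 to 137 CPM in WT and 114 to 156 in knockout. Alveolar macrophage markers (5 of 5 genes) likewise summed to 51.7 to 63.3 CPM in WT and 65.1 to 81.4 in knockout without LPS, with no overlap, and to 36.3 to 47.2 and 40.3 to 49.8 with LPS. Of the dendritic cell markers 5 of 7 had a promoter peak, with a summed level of 47.7 to 63.7 CPM in WT unstimulated, 57.5 to 68.6 in knockout unstimulated, 55.9 to 74.6 in WT LPS and 51.4 to 62.7 in knockout LPS libraries. Clec9a and Xcr1, which define cross-presenting dendritic cells, had none. Of the neutrophil markers 3 of 5 had a promoter peak, at 30.7 to 41.8 and 34.9 to 38.3 CPM without LPS and 34.6 to 51.7 and 43.4 to 51.2 with LPS, WT before knockout. Of the fibroblast markers only Pdgfra had one, at 13.5 to 19.8 and 15.3 to 17.9 CPM without LPS, and at 12.9 to 18.9 and 10.9 to 12.3 with LPS, where the genotypes did not overlap. No gene of the mast cell and basophil list (3 genes) or the T and B cell list (4 genes) had a promoter peak. The part of these marker levels in the genotype results below was not tested.

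Dhrs3 (ENSMUSG00000066026.14, mm10 chr4:144892827-144928209, plus strand) held 13 peaks: its promoter, 7 intronic regions, 1 at the last exon, 1 region upstream and 3 downstream. The intronic peak it was chosen for, chr4:144908699-144909443, lies 16.2 kb into the gene. It read 36.3 ± 1.32 CPM in WT unstimulated libraries (35.3 lowest, 35.8 median, 38.8 highest) and 38.8 ± 1.52 in knockout unstimulated libraries (36.6, 39.3 and 40.3). With LPS it read 30.1 ± 1.93 CPM in WT (28, 30.1 and 32.7) and 13 ± 1.35 in knockout (11.7, 12.8 and 15.4). The knockout LPS libraries thus stood apart below all others, while the unstimulated groups overlapped. As log2 fold changes, LPS moved the peak by -0.27 ± 0.06 in WT and by -1.58 ± 0.06 in knockout, and the knockout differed from WT by 0.10 ± 0.06 without LPS and by -1.21 ± 0.06 with it. The region was called as a peak in all 6 libraries of each group.

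The central 300 bases of this Dhrs3 peak are shown because the report turns on them, from the RefSeq copy of the mm10 assembly, plus strand, chr4:144908921-144909220. Capitals mark the receptor hexamer AGGTCA, and the AhR core GCGTG was found on neither strand.
Dhrs3 intronic peak: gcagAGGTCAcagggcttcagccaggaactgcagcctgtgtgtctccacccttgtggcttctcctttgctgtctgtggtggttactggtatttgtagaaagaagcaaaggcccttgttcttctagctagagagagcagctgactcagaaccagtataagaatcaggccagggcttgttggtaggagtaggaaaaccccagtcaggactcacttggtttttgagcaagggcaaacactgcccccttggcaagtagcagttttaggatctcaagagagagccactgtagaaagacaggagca
Of the central 300-base windows of all tested peaks, 35% held AGGTCA or AGTTCA and 16.3% held GCGTG on either strand, against 44 and 18 of the 108 member windows (40.7% and 16.7%). A match of this kind is a description of the letters and not a bound site.

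Elsewhere in Dhrs3, 5 of the 12 other peaks fell with LPS in both genotypes, where 21.6% of all tested peaks fell in WT and 21.5% in knockout. The promoter peak (chr4:144890678-144893060) was by far the most open of the members' promoters per length, at 27.8 CPM per kb in WT unstimulated libraries. The Dhrs3 promoter peak read 66.2 ± 2.26 CPM in WT and 72.4 ± 6.51 in knockout without LPS, and 36.6 ± 3.42 in WT and 28.6 ± 1.97 in knockout with LPS. It fell by 0.86 ± 0.06 on the log2 scale in WT (adjusted p = 1e-14) and by 1.34 ± 0.06 in knockout (adjusted p = 2.26e-20), and in each genotype no LPS library reached an unstimulated one. The genotype difference with LPS, -0.35 ± 0.06, stayed under 1.5-fold.

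The neighbouring intronic peak at chr4:144906386-144906959 fell by 1.10 ± 0.07 on the log2 scale in WT (adjusted p = 1.42e-15) and by 1.66 ± 0.07 in knockout (adjusted p = 1.16e-20). It read 32.3 ± 1.62 and 34.2 ± 3.01 CPM without LPS, and 15 ± 1.75 and 10.8 ± 0.990 with LPS, WT before knockout. In each genotype 6 of the 12 fell and 2 rose with LPS (66.7%, backgrounds 47.0% in WT and 48.9% in knockout). Of all tested peaks, 21.6% fell and 25.4% rose in WT, and 21.5% and 27.3% in knockout. A weak intronic peak 34 kb into the gene (0.408 ± 0.143 CPM in WT LPS, 0.879 ± 0.255 in knockout LPS) was the single genotype DAR among them, at 1.10 ± 0.25 with LPS (adjusted p = 0.000392). It was called as a peak in 2 of the 24 libraries.

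**Figure D1:**
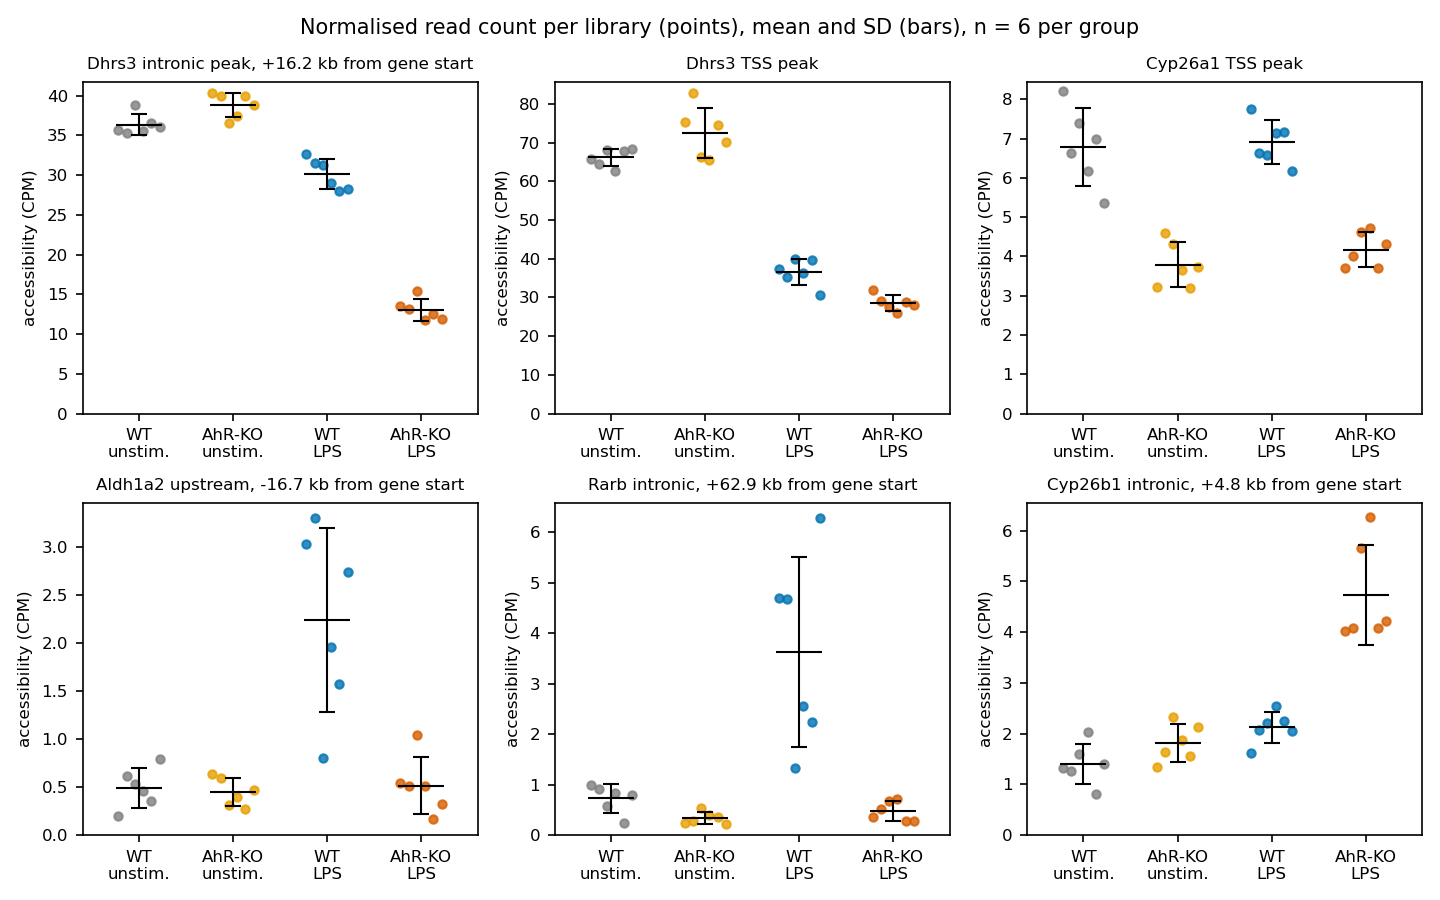
Accessibility in CPM (vertical axis) of 6 member peaks in each of the 24 libraries (points), with the mean and SD of each group of 6 (bars). The Dhrs3 intronic peak is low in knockout LPS libraries alone, the Cyp26a1 promoter is lower in both knockout groups, and the Aldh1a2 and Rarb regions are raised in WT LPS libraries with a wide spread.

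The peaks outside the member loci whose log2 CPM followed the chosen Dhrs3 peak most closely over the 24 libraries lay at Tsc22d3 (Pearson r = 0.983), Tspan14 (promoter 0.979, a distal region 15.9 kb from the start site 0.979), Tmem268 (0.978) and Slc12a7 (0.977). Tsc22d3, which encodes the glucocorticoid-induced leucine zipper, read 43.1, 41.6, 36.6 and 22.5 CPM over its promoter in WT unstimulated, knockout unstimulated, WT LPS and knockout LPS libraries. Among promoters of protein-coding genes, Snx24 (0.975) and Tbc1d30 (0.974) completed the closest 5. These values share libraries and depth with the Dhrs3 peak and are a description.

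Across the other 105 tested member peaks, 30 were DARs between the genotypes without LPS, 28.6%, beside a background of 22.6% of all tested peaks. Of these, 19 were lower and 11 higher in knockout, beside 12.6% and 9.97% of all peaks. With RLE size factors in place of TMM the split was 16 lower and 14 higher. With LPS 32 were DARs (30.5%, background 26.5%), 24 lower and 8 higher (backgrounds 13.1% and 13.4%). Both shares are close to the background, and the medians were too, with a median log2 fold change of 0.03 without LPS and 0.06 with LPS beside -0.02 and 0.02 over all tested peaks. Lower DARs of both comparisons were shared at 15 peaks and higher ones at 2, and none turned direction, though a peak called in 1 comparison and not in the other is not shown to differ between them.

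LPS itself moved more of them. In WT 62 of 105 peaks were DARs (59.0%, background 47.0%), 33 lower and 29 higher (backgrounds 21.6% and 25.4%). In knockout 55 were DARs (52.4%, background 48.9%), 36 lower and 19 higher (backgrounds 21.5% and 27.3%). The median log2 fold change was 0.02 in WT and -0.11 in knockout, beside -0.01 and 0.05 over all tested peaks. The interaction, the genotype effect with LPS less that without, was a DAR at 10 peaks (9.52%, background 10.4%), 7 negative and 3 positive (backgrounds 4.6% and 5.82%). None of the 10 was at Dhrs3, which was chosen on this contrast, and without its 12 peaks the share was 10.8% of 93. Without the peaks that needed 1 group to pass the filter, 97 were left, with 26 genotype DARs in either comparison (26.8%), 55 and 53 LPS DARs and 7 interaction DARs. Both ways of leaving peaks out were chosen after the data were seen. The scatter of LPS effects by genotype shows most points near the diagonal, and points of Aldh1a2, Rarb and Rbp4 away from it.

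**Figure D2:**
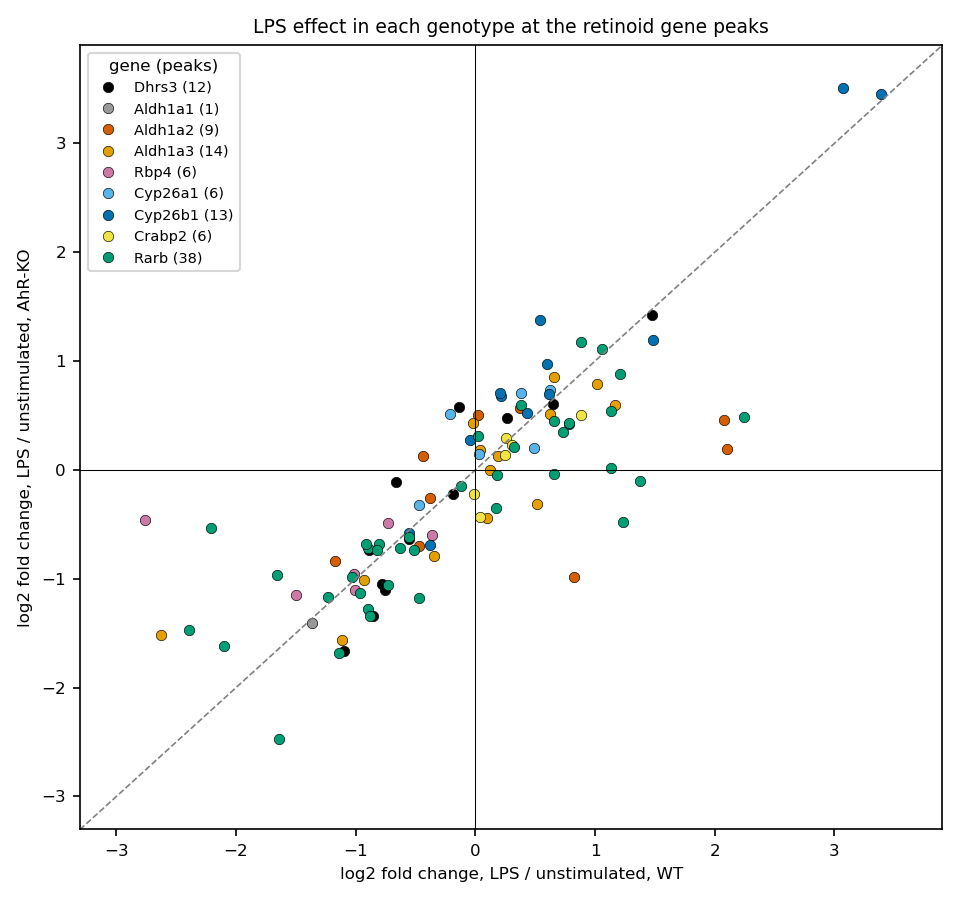
Log2 fold change of LPS against unstimulated in WT (horizontal axis) and in knockout (vertical axis) for 105 member peaks, coloured by gene, without the chosen Dhrs3 peak. The dashed line marks equal effects; the Cyp26b1 points at the upper right are 3.07 and 3.39 in WT and 3.51 and 3.45 in knockout, and the Aldh1a2 points at 2.10 and 2.08 in WT read 0.20 and 0.46 in knockout.

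The enzymes that make retinoic acid differed among themselves. Aldh1a2 (ENSMUSG00000013584.5, chr9:71215789-71296243, plus strand), the retinaldehyde dehydrogenase known from retinoic acid producing dendritic cells and macrophages, held 9 peaks. Its promoter peak (chr9:71215099-71216603) was not a DAR in any comparison, though its rise with LPS in knockout, 0.57 ± 0.10 (adjusted p = 3.26e-06), lay just under 1.5-fold and passed it on leaving out each of 5 knockout libraries. It read 4.84 ± 0.611 CPM in WT unstimulated, 5.60 ± 0.747 in knockout unstimulated, 6.21 ± 0.430 in WT LPS and 8.31 ± 0.786 in knockout LPS libraries.

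A pair of upstream regions opened with LPS in WT cells. The peak 16.7 kb upstream (chr9:71198821-71199378) read 0.491 ± 0.207 CPM in WT unstimulated libraries and 2.24 ± 0.959 in WT LPS libraries (0.806 lowest, 2.35 median, 3.30 highest). In knockout it read 0.445 ± 0.147 CPM without LPS and 0.516 ± 0.296 with LPS (0.163, 0.513 and 1.04). It rose by 2.10 ± 0.33 on the log2 scale in WT (adjusted p = 2.08e-06) and differed by 0.20 ± 0.40 in knockout (adjusted p = 0.683). The genotype difference with LPS was -2.12 ± 0.31 (adjusted p = 1.75e-06), and the interaction was -1.91 ± 0.53 (adjusted p = 0.0143). WT and knockout LPS libraries overlapped in 1 place, since the lowest WT library lay under the highest knockout library.

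The peak 13.5 kb upstream (chr9:71201991-71202657) rose in WT as well, by 2.08 ± 0.31 on the log2 scale. It read 0.379 ± 0.178 CPM in WT unstimulated, 0.326 ± 0.108 in knockout unstimulated, 1.74 ± 0.915 in WT LPS (0.748, 1.72 and 3.17) and 0.454 ± 0.0987 in knockout LPS libraries (0.365, 0.401 and 0.588). Here every WT LPS library stood above every knockout LPS library, with a genotype difference of -1.95 ± 0.29 and an interaction of -1.62 ± 0.51. This peak passed the count filter through its WT LPS libraries, so that group had to stand higher and these differences are given as a description. The interaction call was also lost without knockout unstimulated replicate 1 (adjusted p = 0.0559) or replicate 3 (adjusted p = 0.0565). Both upstream regions lie in the annotated gene model Gm32511.

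These windows are printed because they are the upstream regions of Aldh1a2 that rose with LPS in WT, plus strand, chr9:71198949-71199248 and chr9:71202174-71202473. Capitals mark the hexamer AGGTCA on the minus strand, which was in the 13.5 kb window alone, and neither window held GCGTG.
Aldh1a2 upstream, 16.7 kb: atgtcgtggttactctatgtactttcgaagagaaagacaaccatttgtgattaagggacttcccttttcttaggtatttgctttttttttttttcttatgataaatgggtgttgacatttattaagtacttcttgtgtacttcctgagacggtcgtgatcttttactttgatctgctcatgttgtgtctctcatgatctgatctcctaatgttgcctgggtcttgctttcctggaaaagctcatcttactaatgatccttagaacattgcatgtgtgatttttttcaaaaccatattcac
Aldh1a2 upstream, 13.5 kb: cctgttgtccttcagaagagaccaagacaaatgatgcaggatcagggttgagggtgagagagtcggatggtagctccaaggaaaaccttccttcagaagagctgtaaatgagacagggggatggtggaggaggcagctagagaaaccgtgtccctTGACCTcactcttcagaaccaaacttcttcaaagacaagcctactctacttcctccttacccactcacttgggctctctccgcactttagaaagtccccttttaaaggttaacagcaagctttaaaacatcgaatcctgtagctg

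At the far end of the locus a region 19.9 kb past Aldh1a2 (chr9:71316163-71317474) moved in opposite directions with LPS. It read 2.31 ± 0.733 CPM in WT unstimulated and 4.07 ± 1.29 in WT LPS libraries, a rise of 0.82 ± 0.19 on the log2 scale (adjusted p = 0.000308). In knockout it read 2.65 ± 0.353 and 1.34 ± 0.222 CPM and fell by 0.98 ± 0.21 (adjusted p = 9.39e-05), giving an interaction of -1.80 ± 0.28 (adjusted p = 4.06e-05). The genotype difference with LPS was -1.60 ± 0.19 (adjusted p = 3.97e-08). This peak is also the member just inside the 20 kb limit. The closest peak beyond the limit, 20.3 kb from Aldh1a3, read 2.06, 2.14, 1.33 and 1.19 CPM in the order used above. Genotype DARs of Aldh1a2 numbered 2 of 9 without LPS (22.2%, background 22.6%, -1.02 to -0.63) and 4 of 9 with LPS (44.4%, background 26.5%, -2.12 to -0.69), all lower in knockout. Those with LPS include the region 13.5 kb upstream, which passed the count filter through its WT LPS libraries. The smallest p without LPS was 5.1 kb past the gene (chr9:71301372-71302921), at 5.39 ± 1.32 CPM in WT and 3.54 ± 0.379 in knockout (-0.63 ± 0.13, adjusted p = 0.000117), a call that was lost with RLE size factors, with DESeq2 and without WT unstimulated replicate 1.

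Aldh1a3 (ENSMUSG00000015134.15, chr7:66390890-66427517, minus strand), a further retinaldehyde dehydrogenase, held 14 peaks, 1 of them over the promoter of the neighbour Lrrk1. Its own promoter peak (chr7:66427207-66428154) read 2.28 ± 0.426 CPM in WT and 1.56 ± 0.249 in knockout without LPS, and 2.45 ± 0.586 and 1.15 ± 0.277 with LPS. With LPS it was lower in knockout by 1.09 on the log2 scale (-1.09 ± 0.17, adjusted p = 2.21e-06) and the groups did not overlap. The difference without LPS, -0.55 ± 0.18, fell short of 1.5-fold, and it passed that limit on leaving out WT unstimulated replicate 3 or 4 or knockout unstimulated replicate 2.

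The steepest genotype difference of all members was 11.5 kb upstream of Aldh1a3 (chr7:66438872-66439117). The region read 3.08 ± 1.02 CPM in WT unstimulated libraries (2.10 lowest, 2.86 median, 4.70 highest) and 0.268 ± 0.141 in knockout unstimulated libraries (0.0849, 0.269 and 0.473). With LPS it read 0.501 ± 0.233 CPM in WT and 0.0934 ± 0.0621 in knockout. The genotype difference was -3.48 ± 0.30 before stimulation and -2.36 ± 0.44 after LPS (adjusted p = 3.72e-05), with no overlap of the groups in either. In WT it fell by 2.63 ± 0.26 on the log2 scale with LPS. It was called as a peak in 5 of 6 WT unstimulated libraries and in none of the others. The region passed the count filter through that group, which therefore had to stand higher. Differences from WT unstimulated libraries are thus given here as a description.

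Another upstream region of Aldh1a3, 2.6 kb from the start (chr7:66429798-66430475), had the smallest p with LPS, at 1.87 ± 0.569 CPM in WT and 0.612 ± 0.0551 in knockout (-1.60 ± 0.24, adjusted p = 1.72e-06). Over an exon near the 3′ end (chr7:66392441-66392852) the direction was the other way without LPS, with 6.71 ± 0.792 CPM in WT and 10.2 ± 0.695 in knockout (0.60 ± 0.12, adjusted p = 0.000136). The same exonic region fell with LPS in both genotypes, by 1.11 ± 0.13 on the log2 scale in WT (adjusted p = 2.71e-09) and by 1.56 ± 0.13 in knockout (adjusted p = 1.77e-13). Aldh1a1 (ENSMUSG00000053279.8, chr19:20492715-20643465, plus strand), the third enzyme of this kind, held a single weak intronic peak and none over its promoter. That peak fell with LPS, from 0.442 ± 0.220 to 0.175 ± 0.0600 CPM in WT (-1.36 ± 0.45) and from 0.458 ± 0.307 to 0.173 ± 0.0960 CPM in knockout (-1.41 ± 0.45). It passed the count filter through its unstimulated libraries, 4 in WT and 3 in knockout, with 0 LPS libraries at the minimum. The unstimulated groups thus had to stand higher, and the fall is given as a description. At this depth the peak was called in 1 of the 24 libraries.

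**Figure D3:**
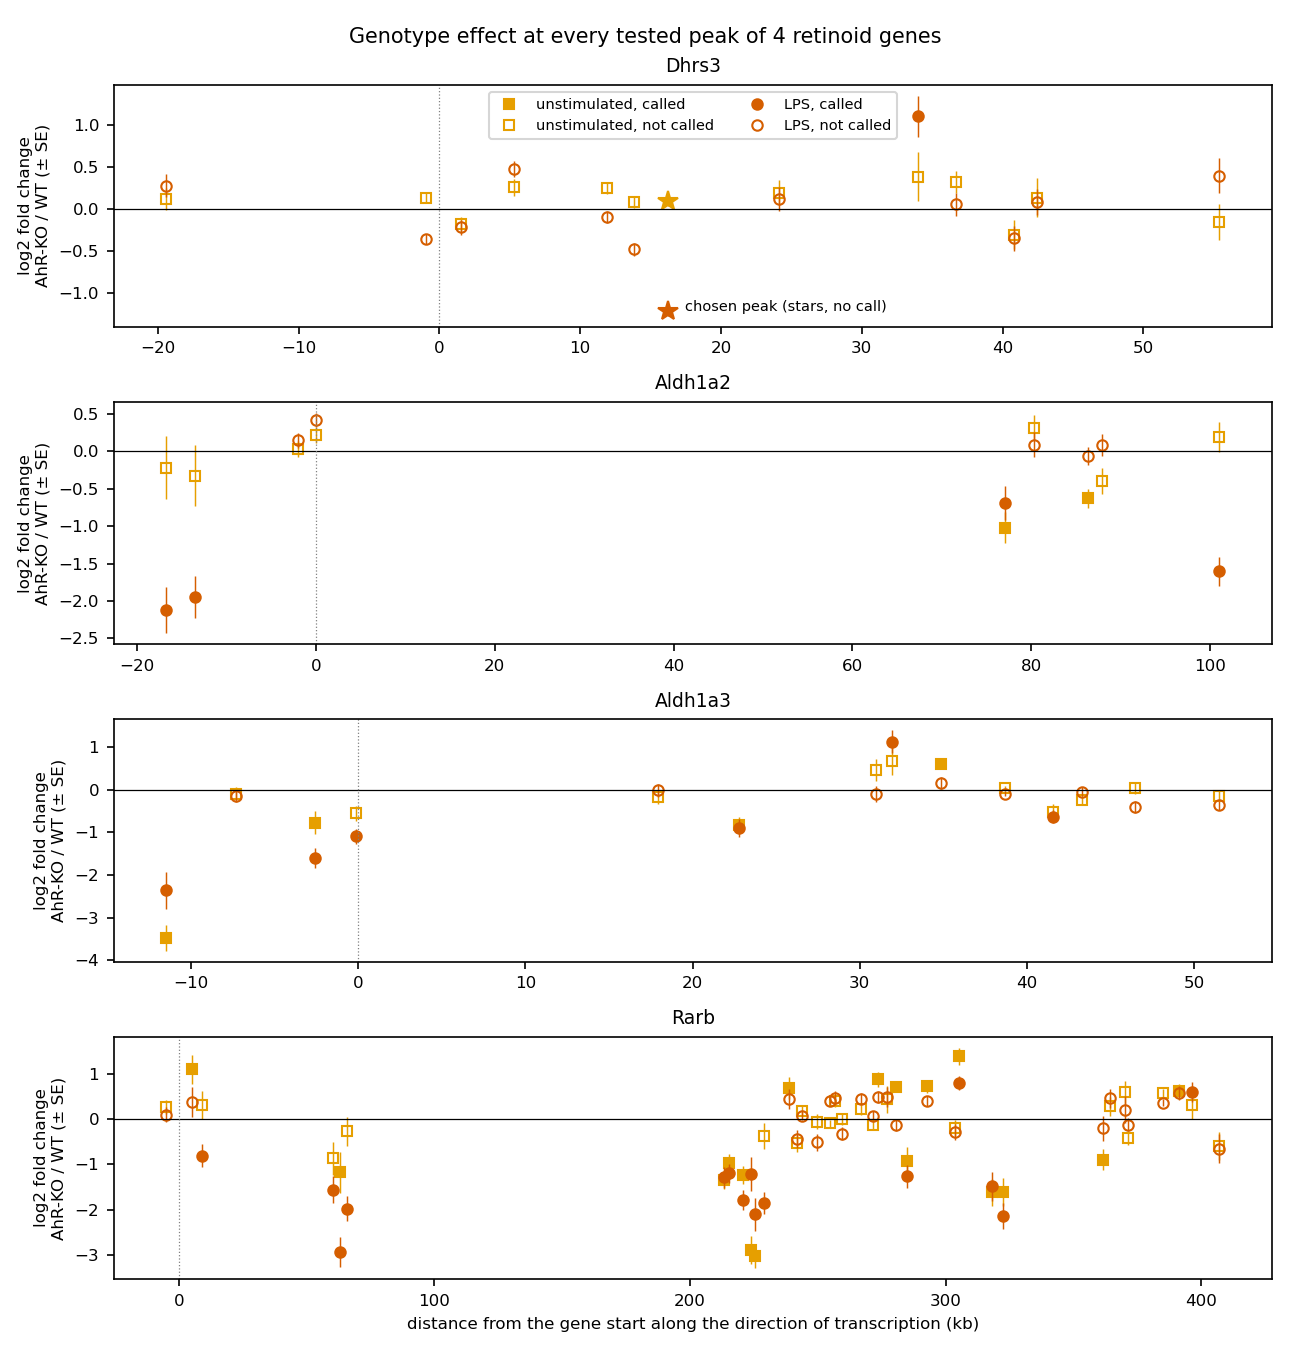
Log2 fold change of knockout against WT (vertical axis, ± SE) at each tested peak of Dhrs3, Aldh1a2, Aldh1a3 and Rarb by distance from the gene start in kb (horizontal axis). Squares are unstimulated and circles LPS-stimulated, filled where the peak was a DAR, and stars are the chosen Dhrs3 peak with no call; the lower DARs of Rarb group near 62.9 kb and near 220.8 kb, and those of Aldh1a2 lie outside the promoter.

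Rbp4 (ENSMUSG00000024990.13, chr19:38116629-38125281, minus strand), the plasma carrier of retinol, had a weak promoter peak (chr19:38124332-38125213) of 1.66 ± 0.269, 1.39 ± 0.192, 1.31 ± 0.326 and 0.926 ± 0.299 CPM in WT unstimulated, knockout unstimulated, WT LPS and knockout LPS libraries. It fell with LPS in knockout by 0.59 ± 0.19 on the log2 scale (adjusted p = 0.00762), a call that fell under 1.5-fold in 6 of the fits that left out 1 knockout library each. The strongest LPS effects among its 6 peaks were at the promoter of the neighbour Ffar4 (chr19:38096043-38097707), with -1.01 ± 0.09 in WT (adjusted p = 9.96e-13) and -1.10 ± 0.08 in knockout (adjusted p = 4.32e-14).

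A small region 13.6 kb upstream of Rbp4 (chr19:38138775-38138982), within the neighbour Pde6c, was open in WT unstimulated libraries and close to 0 elsewhere. It read 1.44 ± 0.285 CPM there (1.11, 1.45 and 1.83) and 0.160 ± 0.126 in knockout unstimulated, 0.213 ± 0.0700 in WT LPS and 0.114 ± 0.0452 in knockout LPS libraries. The genotype difference without LPS was -3.18 ± 0.32, the LPS effect in WT was -2.76 ± 0.29 and the interaction was 2.30 ± 0.60. The region passed the count filter through the 6 WT unstimulated libraries alone, so that group had to stand higher and these differences are given as a description. Only 1 WT unstimulated library had it as a called peak.

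Of the breakdown enzymes, Cyp26a1 (ENSMUSG00000024987.6, chr19:37697798-37701536, plus strand), a classical target of retinoic acid, had a promoter that was a genotype DAR both without and with LPS. Its promoter peak (chr19:37696287-37699158) read 6.79 ± 0.986 CPM in WT unstimulated libraries (5.36, 6.81 and 8.21) and 3.79 ± 0.569 in knockout unstimulated libraries (3.20, 3.70 and 4.61). With LPS it read 6.91 ± 0.555 CPM in WT (6.17, 6.89 and 7.75) and 4.18 ± 0.442 in knockout (3.70, 4.16 and 4.72). All WT libraries lay above all knockout libraries, with -0.84 ± 0.11 before stimulation (adjusted p = 1.54e-07) and -0.73 ± 0.11 after LPS (adjusted p = 5.86e-07), while LPS moved it by 0.03 ± 0.10 in WT and 0.14 ± 0.11 in knockout. The region 0.9 kb past the gene (chr19:37702468-37702996) was lower in knockout as well, by -0.74 ± 0.13 (adjusted p = 2.02e-05) and -0.59 ± 0.13 (adjusted p = 0.000338). An upstream region 8.1 kb from the start, within the neighbouring gene of a further breakdown enzyme, Cyp26c1, rose with LPS in both genotypes, by 0.63 ± 0.11 in WT (adjusted p = 3.61e-06) and 0.73 ± 0.11 in knockout (adjusted p = 1.48e-07). The WT rise fell under 1.5-fold without WT LPS replicate 3 (0.58).

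The Cyp26a1 promoter window was the only one of 108 member windows with the hexamers AGGTCA or AGTTCA as a direct repeat with a gap of 5 bases, the spacing that receptors of retinoic acid are known to bind, and 0.0661% of all tested windows held it. Direct repeats with a gap of 1 or 2 bases were in no member window, against 0.126% and 0.0856% of all. When GGTTCA was also allowed, a choice made with the sequences in view, the Rarb promoter window was added and the share of all windows was 0.0879%. Both promoters are shown as the 250 bases before the start site, in the direction of transcription, from the RefSeq promoters of GRCm38.p6, at chr19:37697558-37697807 and, on the minus strand, chr14:16575477-16575726. Capitals mark the repeat and, in Rarb, also the AhR core on the opposite strand.
Cyp26a1 promoter: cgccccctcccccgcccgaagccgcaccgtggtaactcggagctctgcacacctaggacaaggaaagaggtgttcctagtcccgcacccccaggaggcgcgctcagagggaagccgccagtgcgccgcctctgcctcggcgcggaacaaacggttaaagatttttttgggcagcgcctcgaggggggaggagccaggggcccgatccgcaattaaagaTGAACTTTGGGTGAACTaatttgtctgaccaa
Rarb promoter: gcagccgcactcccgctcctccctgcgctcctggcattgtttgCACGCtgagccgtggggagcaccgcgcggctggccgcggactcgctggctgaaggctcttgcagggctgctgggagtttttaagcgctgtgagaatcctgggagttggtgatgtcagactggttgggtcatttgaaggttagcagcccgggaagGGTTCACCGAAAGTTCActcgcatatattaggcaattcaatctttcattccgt
RefSeq promoters matched 7 of the 9 members (11 promoters), and the repeat with the wider choice of hexamers was in 0.0609% of all 32851 promoters of that table.

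Cyp26b1 (ENSMUSG00000063415.12, chr6:84571414-84593908, minus strand), the other breakdown enzyme, held 13 peaks. Its genotype DARs, 3 without and 3 with LPS, were all higher in knockout, and their share of 23.1% lay beside backgrounds of 22.6% and 26.5%. Its promoter peak (chr6:84587424-84588012) covers the start of a shorter transcript 6.2 kb into the gene and was not a DAR. It read 5.84 ± 0.948, 6.99 ± 0.852, 7.85 ± 0.848 and 10.1 ± 1.03 CPM in WT unstimulated, knockout unstimulated, WT LPS and knockout LPS libraries.

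The intronic peak 4.8 kb into Cyp26b1 (chr6:84588911-84589325) read 1.40 ± 0.399 CPM in WT unstimulated, 1.81 ± 0.373 in knockout unstimulated, 2.13 ± 0.303 in WT LPS (1.62, 2.14 and 2.55) and 4.72 ± 0.982 in knockout LPS libraries (4.03, 4.15 and 6.27). No WT LPS library reached a knockout LPS library. The genotype difference with LPS was 1.15 ± 0.15 (adjusted p = 5.25e-08), LPS raised it by 1.38 ± 0.15 in knockout (adjusted p = 5.96e-10), and the interaction was 0.84 ± 0.23 (adjusted p = 0.0123). It was called as a peak in the 6 knockout LPS libraries and in no other. Its window is printed because it held GCGTG 3 times, where no other member window held it more than 2 times, plus strand, chr6:84588968-84589267, with GCGTG and the hexamer AGTTCA in capitals.
Cyp26b1 intronic peak: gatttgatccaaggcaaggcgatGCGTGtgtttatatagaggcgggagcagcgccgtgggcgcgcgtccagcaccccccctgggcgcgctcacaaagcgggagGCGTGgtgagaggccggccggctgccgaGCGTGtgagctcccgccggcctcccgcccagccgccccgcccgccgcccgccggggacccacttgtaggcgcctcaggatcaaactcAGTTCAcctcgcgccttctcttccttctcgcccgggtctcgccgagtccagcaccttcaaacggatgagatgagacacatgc

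The largest LPS effects of the whole set were downstream of Cyp26b1, in both genotypes. The downstream peak starting at chr6:84561252 had 0 unstimulated libraries at the filter minimum and passed only through its LPS libraries. The LPS groups thus had to stand higher there, and its rise in both genotypes is given as a description. The region 11.4 kb past the gene (chr6:84559309-84560000) read 0.453 ± 0.146 and 0.460 ± 0.175 CPM without LPS and 3.77 ± 0.529 and 5.31 ± 1.23 with LPS, WT before knockout. It rose by 3.07 ± 0.21 on the log2 scale in WT (adjusted p = 3.14e-15) and by 3.51 ± 0.19 in knockout (adjusted p = 4.54e-18), and was called in all 12 LPS libraries and no unstimulated one. In all, 6 of the 13 Cyp26b1 peaks rose and none fell with LPS in WT (46.2%, background 47.0%), and 8 rose and 1 fell in knockout (69.2%, background 48.9%). The peak starting at chr6:84561252 is among the risers in both. Of all tested peaks, 25.4% rose and 21.6% fell in WT, and 27.3% and 21.5% in knockout. Upstream, the region 18.8 kb before the start (chr6:84612124-84613225) had the smallest p of genotype without LPS, at 1.73 ± 0.195 CPM in WT and 2.87 ± 0.489 in knockout (0.72 ± 0.15, adjusted p = 0.000261).

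Crabp2 (ENSMUSG00000004885.5, chr3:87948666-87953376, plus strand), the carrier of retinoic acid, had no genotype DAR at its 6 peaks, 2 of which lie over promoters of neighbours. By edgeR 4 of them passed an unadjusted p of 0.05 without LPS and 2 with LPS, all changed by less than 1.5-fold. Its promoter peak (chr3:87946512-87949215) read 4.47 ± 0.585, 5.82 ± 0.582, 5.31 ± 0.427 and 6.38 ± 0.953 CPM in the order used above, with a genotype difference of 0.38 ± 0.11 without LPS and 0.27 ± 0.10 with it. A weak intronic peak (0.214 ± 0.211 CPM unstimulated, 0.428 ± 0.116 with LPS) was its single LPS DAR, in WT (0.88 ± 0.39). Of the unstimulated libraries 1 in WT and 2 in knockout reached the filter minimum, too few for it to pass without LPS libraries. This rise is thus given as a description.

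Rarb (ENSMUSG00000017491.9, chr14:16430839-16819156, minus strand), a nuclear receptor of retinoic acid whose own promoter carries a well-known response element, held 40 peaks, of which 33 are intronic. The promoter peak (chr14:16574980-16575921), over the start whose sequence is shown above, was not a DAR in any comparison. It read 8.93 ± 1 CPM in WT unstimulated (7.48, 9.05 and 10.1), 10.1 ± 1.31 in knockout unstimulated (8.76, 9.88 and 11.7), 11.1 ± 1.92 in WT LPS (8.58, 11.3 and 14) and 11.7 ± 1.41 in knockout LPS libraries (8.97, 12.2 and 12.7). All groups overlapped with a genotype difference of 0.19 ± 0.11 without LPS and 0.07 ± 0.10 with it. Genotype DARs were elsewhere in the gene and went in both directions. Without LPS 10 of 38 tested peaks were lower in knockout (-3.03 to -0.90) and 7 were higher (0.61 to 1.39), together 44.7% beside the background of 22.6%. With LPS 13 were lower (-2.94 to -0.81) and 2 were higher (0.60 and 0.80), together 39.5% beside 26.5%, and 9 of the lower DARs were shared by both comparisons. Lower DARs of both comparisons include the peaks starting at chr14:16500835 and chr14:16595084, which passed the count filter through WT unstimulated libraries. The peak starting at chr14:16758619, lower with LPS, needed both WT groups to pass. The lower DARs starting at chr14:16496315, chr14:16593564, chr14:16753239 and chr14:16755840 had too few knockout libraries at the minimum to pass without WT libraries. The counts of lower DARs thus follow in part from the filter.

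A run of intronic regions 213.5 to 228.9 kb into Rarb was more open in WT. The sharpest (chr14:16593564-16593878) read 4.49 ± 1.84 CPM in WT unstimulated libraries (2.10, 5.34 and 6.06) and 0.561 ± 0.151 in knockout unstimulated libraries (0.340, 0.596 and 0.748). With LPS it read 0.864 ± 0.277 CPM in WT and 0.196 ± 0.0874 in knockout. The difference was -3.03 ± 0.27 before stimulation and -2.10 ± 0.36 after LPS, with no overlap of the groups. Of the knockout libraries 5 without LPS and 0 with LPS reached the filter minimum, too few for the region to pass without WT libraries. These genotype differences are thus given as a description of the region. Next to it, chr14:16597863-16598749 read 12.6 ± 3.6 and 5.41 ± 1.35 CPM without LPS and 5.80 ± 1.67 and 1.69 ± 0.258 with LPS, WT before knockout (-1.24 ± 0.19, adjusted p = 7.35e-06, and -1.79 ± 0.22, adjusted p = 2.17e-07).

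Nearer the 5′ end, 60.4 to 65.7 kb into Rarb, other regions opened with LPS in WT cells, as those upstream of Aldh1a2 did. The peak at chr14:16755840-16756683 read 0.723 ± 0.279 CPM in WT unstimulated, 0.334 ± 0.119 in knockout unstimulated, 3.62 ± 1.88 in WT LPS (1.32, 3.61 and 6.27) and 0.472 ± 0.193 in knockout LPS libraries (0.284, 0.435 and 0.714). It rose by 2.25 ± 0.32 on the log2 scale in WT (adjusted p = 6.07e-07) and differed by 0.48 ± 0.47 in knockout (adjusted p = 0.37). All WT LPS libraries exceeded all knockout LPS libraries, with a difference of -2.94 ± 0.32. Of the knockout libraries 1 without LPS and 3 with LPS reached the filter minimum, too few for the peak to pass without WT libraries. This genotype difference is thus given as a description. The interaction, -1.76 ± 0.59, only just passed (adjusted p = 0.042), and it failed in 14 of the 24 fits that left out 1 library and with the set of sample numbers in the titles as a block (adjusted p = 0.0545). Its window is shown as the strongest genotype difference of the set with LPS, plus strand, chr14:16756111-16756410, with the AhR core and a receptor hexamer, both on the minus strand, in capitals.
Rarb intronic peak: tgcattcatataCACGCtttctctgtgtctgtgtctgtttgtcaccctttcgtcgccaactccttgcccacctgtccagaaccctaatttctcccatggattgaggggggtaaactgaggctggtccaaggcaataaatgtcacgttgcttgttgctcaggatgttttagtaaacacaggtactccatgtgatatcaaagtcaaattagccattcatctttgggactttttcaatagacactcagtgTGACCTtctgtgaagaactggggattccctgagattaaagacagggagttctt

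The LPS effects at Rarb were more often downward. In WT 17 of 38 peaks were lower and 12 higher (76.3%, background 47.0%), beside 21.6% and 25.4% of all tested peaks. In knockout 17 were lower and 4 higher (55.3%, background 48.9%), beside 21.5% and 27.3%. Lower peaks starting at chr14:16448723, chr14:16457222 and chr14:16593564 passed the count filter only with unstimulated libraries, and the higher peak at chr14:16758619 only with LPS libraries. The counts thus follow in part from the filter. The intronic peak at chr14:16563767-16565140 fell from 27.7 ± 2.31 to 6.45 ± 0.532 CPM in WT (-2.10 ± 0.08, adjusted p = 1.69e-22) and from 25.9 ± 2.60 to 8.46 ± 0.868 in knockout (-1.61 ± 0.08, adjusted p = 8.52e-20). At chr14:16538077-16538954 the fall in knockout was from 16.9 ± 1.27 to 3.03 ± 0.350 CPM (-2.48 ± 0.11, adjusted p = 2.94e-21). This region was more open in knockout without LPS (0.70 ± 0.10, adjusted p = 3.13e-07), and its interaction was -0.84 ± 0.15 (adjusted p = 0.000211). The largest higher DAR of Rarb, at chr14:16513215-16514506, read 1.95 ± 0.183 CPM in WT and 5.13 ± 1.23 in knockout without LPS (1.39 ± 0.19, adjusted p = 2.89e-07).

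The WT libraries that were low at these regions were low at several loci together, and at the promoters of some dendritic cell markers but not of others. In WT LPS libraries the chemokine receptor Ccr7 read 8.41, 8.61, 3.28, 7.08, 4.48 and 10.6 CPM over its promoter in replicates 1 to 6. The Aldh1a2 region 16.7 kb upstream read 3.03, 3.30, 0.806, 1.96, 1.57 and 2.74 CPM in the same libraries, and the Rarb region at 62.9 kb read 4.69, 4.67, 1.32, 2.55, 2.24 and 6.27. Replicate 3 was lowest in all of them and at Dpp4 (4.06 CPM), while Flt3 was lowest in replicate 5 (8.14 CPM) and next in replicate 3 (8.57). The stronger Zbtb46 promoter (15.6 CPM) and Itgax (19.6 CPM) were instead lowest in replicate 1, and the weaker Zbtb46 promoter in replicate 2 (0.734 CPM), and Itgax was highest in replicate 5 (24.4 CPM). In knockout LPS libraries Ccr7 read 1.94, 1.86, 4.48, 2.18, 1.75 and 2.60 CPM, and its replicate 3 also had the highest value of the group at the Aldh1a2 region, 1.04 CPM. In WT unstimulated libraries the dendritic cell receptor Flt3 was lowest in replicate 5 (5.95 CPM) and next in replicate 3 (7.52), as the Rarb region at 225.4 kb was (2.10 and 2.21 CPM, the others from 5.06 to 6.06).

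Flt3 was itself lower in knockout, at 9.08 ± 2.12 CPM in WT and 4.10 ± 0.609 in knockout without LPS (-1.16, adjusted p = 5.32e-07) and 11.6 ± 3.03 and 4.74 ± 0.487 with LPS (-1.29, adjusted p = 2.4e-08). Ccr7 was lower with LPS, at 7.07 ± 2.73 CPM in WT and 2.47 ± 1.03 in knockout (-1.53, adjusted p = 1.11e-05). Dpp4 was lower both without LPS (-0.79, adjusted p = 0.000535) and with it (-0.66, adjusted p = 0.00298). The remaining dendritic cell markers did not all move this way. Itgax was higher in knockout (0.72 without LPS, adjusted p = 3.73e-09) and the weaker of the Zbtb46 promoters was higher too (1.52 with LPS, adjusted p = 1.08e-09). The stronger Zbtb46 promoter was slightly higher in knockout without LPS (0.21, adjusted p = 0.0313) and slightly lower with it (-0.19, adjusted p = 0.0446). The part of these marker differences in the results at Aldh1a2, Aldh1a3, Rbp4 and Rarb was not tested. In bulk libraries fewer cells of a type and less open chromatin per cell cannot be told apart. The Dhrs3 intronic peak ranged from 28 to 32.7 CPM over the WT LPS libraries.

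**Figure D4:**
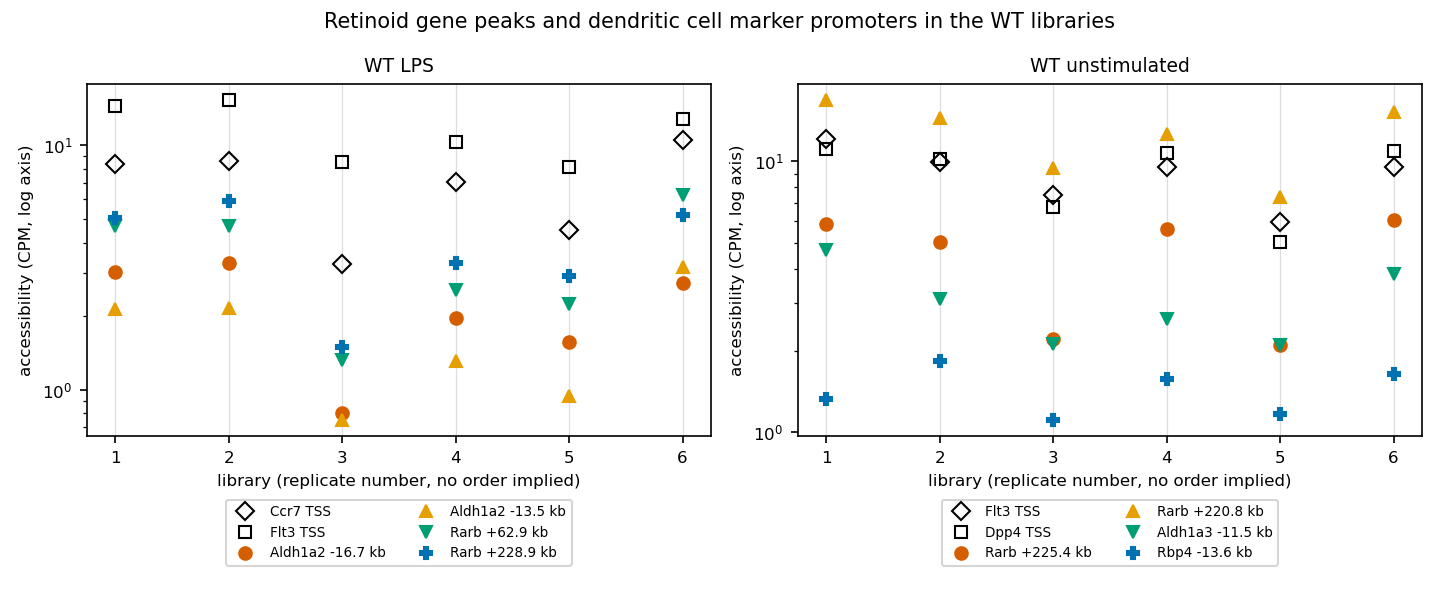
Accessibility in CPM (vertical axis, log scale) in each WT LPS library (left) and each WT unstimulated library (right), for promoters of dendritic cell markers (open symbols) and member regions named by distance from the gene start (filled symbols). Replicate 3 is lowest for most series on the left (Ccr7 3.28 CPM), and replicates 3 and 5 are low on the right (Flt3 7.52 and 5.95 CPM). The markers plotted (Ccr7, Flt3 and Dpp4) were picked after their values were seen, and Zbtb46 and Itgax, not plotted, were not lowest in replicate 3 or 5 with LPS.

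For comparison, 29 further genes of the pathway, from a list without the members, held 207 peaks, of which 204 were tested. Between genotypes 46 were DARs without LPS (21 lower, 25 higher) and 41 with LPS (25 lower, 16 higher), 22.5% and 20.1%. These shares lay beside backgrounds of 22.6% and 26.5%. LPS gave 89 DARs in WT (43.6%, background 47.0%) and 87 in knockout (42.6%, background 48.9%), and the interaction 29 (14.2%, background 10.4%). Genes of retinol handling had more lower than higher DARs in knockout. Before stimulation 11 of 41 peaks were lower and 2 higher (31.7%, background 22.6%), and after LPS 9 were lower and 1 higher (24.4%, background 26.5%). Of all tested peaks, 12.6% were lower and 9.97% higher before stimulation, and 13.1% and 13.4% after LPS. The median log2 fold change of the group was -0.24 and -0.19. At the retinol importer Stra6 all 6 peaks were lower in knockout with LPS (median -1.95) and 2 were lower without LPS. Without Stra6 the group held 9 lower and 2 higher of 35 peaks before stimulation (31.4%) and 3 lower and 1 higher after LPS (11.4%). None of the 6 Stra6 peaks covers a Stra6 start site, and 1 lies over a start of the neighbour Ccdc33.

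Of 69 receptor peaks 13 were higher and 3 lower in knockout before stimulation (23.2%, background 22.6%), and 5 were lower and 3 higher after LPS (11.6%, background 26.5%). At Rxra, the partner receptor, 8 of 21 peaks were higher before stimulation, and 3 were lower and 1 higher after LPS. With LPS 14 of the 21 Rxra peaks fell in knockout and none rose (66.7%, background 48.9%), and 10 fell and 2 rose in WT (57.1%, background 47.0%). Of all tested peaks, 21.5% fell and 27.3% rose in knockout, and 21.6% and 25.4% in WT. Enzymes that interconvert retinol and retinal gave 7 lower and 6 higher of 81 peaks before stimulation (16%, background 22.6%) and 10 lower and 12 higher after LPS (27.2%, background 26.5%). Of the acid carriers and breakdown genes, Fabp5 had 4 of 7 peaks higher in knockout without LPS (57.1%, background 22.6%) and none with LPS (background 26.5%). Rpe65 and Rdh16 had no peak.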

How the data were processed

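ATAC-seq libraries were aligned to mm10 by the authors with the nf-core atacseq pipeline, broad peaks were called per library with MACS2, and fragments were counted over merged consensus peaks with featureCounts 2.0.1 (minimum fragment overlap 0.2, fragments shared by overlapping peaks counted for each). Base calling with bcl2fastq 2.20.0 is named in the submitters' processing notes. The deposited counts per consensus peak are raw. The peak lists give the authors' fold enrichment over background (a ratio), and −log10 p and q values as deposited by the authors, of which only positions were used, to count libraries with a called peak. Deposited starts are 0-based, so 1 was added to each.

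Counts on chromosomes 1 to 19, X and Y (184060 peaks) were filtered with filterByExpr, scaled by TMM (factors 0.976 to 1.04) and tested in edgeR 4.0.16 (R 4.3.3) with glmQLFit and glmQLFTest over all 24 libraries and 4 groups, with trended dispersion and Benjamini-Hochberg adjustment over 174106 peaks. Genes and start sites came from GENCODE vM21. The fit was tested on simulated data. Library depth was 8.54 M to 34.6 M (mega) fragments, which limits regions of low CPM most. The members and gene lists were chosen with earlier results of these data known. Peaks named singly were the chosen Dhrs3 peak, each member's promoter peak, the peak with the smallest p per member and comparison where it was a DAR, and interaction DARs. Others named were picked after their values were seen. Likeness was Pearson's r of log2 CPM plus 0.5. Alternatives were RLE, library totals, no filter, DESeq2 1.42.0, per-peak dispersion, blocks, fewer groups, leaving out each library, other fold limits and narrower gene windows. Growth in 10% serum was common to all cultures.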

Additional observations from a re-analysis of the deposited data

Results flagged for a closer look

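Of 124 groups of 6 libraries checked over the named peaks, 5 held a library that stood far from the others, where chance gives about 1 in 20. WT unstimulated replicate 3 was highest at the chosen Dhrs3 peak (38.85 CPM, the next 36.52), and WT unstimulated replicate 5, the shallowest library, was highest at the region 8.1 kb upstream of Cyp26a1 (7.116 CPM, the next 4.646). Among AhR-KO LPS libraries, replicate 3 was highest at the Cyp26b1 promoter peak (12.13 CPM, the next 9.88), replicate 5 was lowest at the Rarb promoter (8.975 CPM, the next 11.7) and replicate 2 was highest at the Rarb region 225.4 kb into the gene (0.3645 CPM, the next 0.2031).

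At 10 peaks the genotype effect with LPS differed from that without, by edgeR's interaction term. The log2 interaction at Aldh1a2 was -1.91 and -1.62 at the upstream regions and -1.80 past the gene. It was 2.30 upstream of Rbp4, at a region that passed the count filter through the WT unstimulated libraries alone, and 0.84 in the Cyp26b1 intron. At Rarb it was -0.84 at chr14:16538077-16538954, -1.48 at chr14:16589371-16591152, 1.67 at chr14:16595084-16595234, -1.71 at chr14:16753239-16753622 and -1.76 at chr14:16755840-16756683. The region at 16595084 also needed the WT unstimulated libraries to pass the count filter. The Aldh1a2 region at -1.62 needed the WT LPS libraries. Those groups had to stand higher, so the interactions at these regions and at the Rbp4 region are given as a description. The call at 16595084 was lost without AhR-KO LPS replicate 2 (adjusted p = 0.0574), 3 (0.0795) or 6 (0.0625).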

How the results depend on the processing

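Requiring a fold change of at least 2 left 12 genotype DARs without LPS, 21 with LPS, 32 LPS DARs in WT and 27 in AhR-KO. With no fold threshold the genotype counts were 46 and 60 and the interaction count 17. With the gene body and 5 kb either side there were 41 LPS DARs in WT and 6 interaction DARs, and with the gene body alone 21 genotype DARs with LPS, 38 and 34 LPS DARs in WT and AhR-KO, and 6 interaction DARs, since fewer peaks are members. Leaving out 1 library gave 27 to 32 genotype DARs without LPS, 30 to 36 with LPS, 59 to 63 and 53 to 59 LPS DARs in WT and AhR-KO, and 8 to 13 interaction DARs. Uncalled LPS effects in WT changed sign on leaving out 1 library: at the Aldh1a3 promoter the log2 change ranged from -0.002026 (without WT LPS replicate 6) to 0.2009, and at the Cyp26a1 promoter from -0.01758 (without WT unstimulated replicate 6; -0.00395 without WT LPS replicate 1) to 0.08867. The cause was not tested.

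The labels do not tie same-numbered libraries to 1 animal, and they were treated as unpaired because not every pair of deviations correlated over 0.1. The values were 0.0489 to 0.343 between the WT groups (5 of 6 over 0.1, own number best in 4 of 6) and 0.0087 to 0.209 between the AhR-KO groups (3 of 6 and 3 of 6), so a shared source of same-numbered WT libraries cannot be told from these data. With the replicate block over all groups the counts were 31, 33, 60, 54 and 11, and with the replicate block within genotype 61 and 55 LPS DARs and 12 interaction DARs. Of 599 single-peak values under the alternatives that kept all libraries, 596 held their call and direction and 3 lost the call: the Aldh1a2 region 5.1 kb past the gene with RLE or DESeq2, and the Rarb interaction at 16755840 with the set of sample numbers as a block. Regions under 1 CPM rest on few fragments.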
